A study of Rattus norvegicus with 9 samples.

Results

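The genes described here encode the proteasome, the protein complex that degrades proteins marked with ubiquitin. They were taken from 9 Affymetrix rat expression arrays hybridised with RNA from dissected dendrites. A gene was included when its symbol began with Psm, a letter from a to g and a number, and when at least 1 probe set named that gene alone. Of 14217 genes measured in this way, 46 met the rule, with 60 of 20826 single-gene probe sets. Of these, 44 are subunits or dedicated factors of the proteasome: 16 core subunits (Psma and Psmb), 23 regulatory subunits and factors (Psmc, Psmd and Psme), the inhibitor Psmf1 and 4 assembly chaperones (Psmg). The other 2, Psmc3ip and Psme3ip1, share only the letters of the symbol and were kept out of both classes.

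The dendrites came from hippocampal neurons, labelled pyramidal, of Sprague-Dawley rat embryos at embryonic day 19 that had been kept in primary culture for 14 days without treatment. Somata were removed with a glass micropipette, and pools of 100, 200 or 400 dendrites from many cells were amplified as RNA through repeated rounds of linear amplification. Each pool size had 3 biological replicates. The study cautions that axons could not be told from dendrites by their shape, and the study's mouse arrays were not used here.

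The proteasome is built from a barrel-shaped core and regulatory caps. Alpha subunits form the outer rings of the core and gate its entrance, and beta subunits form the inner rings, some of which carry the proteolytic sites. The regulatory cap has a base, whose ATPases unfold the substrate, and a lid, which removes the ubiquitin chain. In neurons the proteasome is known to work in dendrites and at synapses, where it takes part in activity-dependent remodelling.

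Over all genes the median log2 signal of an array varied from 7.46 to 7.53, and the mean correlation of an array with the other 8 varied from 0.749, in the pool of 400 replicate 1, to 0.839. The 3′ minus 5′ log2 signal of the control probe sets, which grows as RNA is shortened, ranged from 0.84 to 2.99 for Gapdh and from -0.43 to 2.41 for actin over the 9 arrays. The 9 pyramidal neuron markers measured had a median percentile of 80.0, and 6 ranked above the middle of all genes. The list ran from Tbr1 at the 2.44th percentile, with Camk2a at the 28.8th, to Neurod2 at the 99.9th. Dendrite markers had a median percentile of 78.0 (5 genes). Astrocyte markers had a median percentile of 84.1 (9 genes), led by Fabp7 at 95.7 and with Aqp4 at 10.03, while microglial markers had 27.0 (8 genes). Interneuron markers had 36.9 (9 genes), from Slc32a1 at 11.6 and Gad1 at 13.7 to Calb2 at 86.7, with 4 above 50. Oligodendrocyte lineage markers had 57.9 (7 genes), endothelial markers 52.6 (5 genes) and fibroblast and mural markers 33.5 (7 genes). The mean log2 signal of the astrocyte list lay between 8.32 and 9.20 in pools of 100, 7.34 and 8.79 in pools of 200 and 7.39 and 9.00 in pools of 400; its part in the values below was not tested.

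To ask how strongly proteasome RNA was detected, each gene was given its percentile among the 14217 genes of an array, and the median over the 9 arrays was taken. A percentile is a rank of log2 signal and not an amount of RNA, since probe sets differ in affinity. Proteasome genes ranked above the middle of the array: 33 of 44 had a median percentile above 50, and the median over the 44 was 64.5. Core subunits had a median percentile of 68.8 (range 23.0 to 95.6) and 14 of 16 were above 50. Regulatory subunits had a median of 58.5 (range 14.7 to 97.2) and 17 of 23 were above 50. Of the 44 genes, 5 stood among the 711 highest-ranked genes (Psmb2, Psmb4, Psmd6, Psmd13 and the chaperone Psmg3), a set that holds 5% of all genes by its definition. That membership depended on how genes with several probe sets were summarised. With the brightest probe set per gene, Psmb2, Psmb4, Psmd6 and Psmd13 left the set (percentiles 91.6, 91.7, 92.2 and 94.4) while Psmb5 and Psmd11 entered it. The genes that left have 1 probe set each, so their own signals were unchanged. Their ranks fell as the values of genes with several probe sets rose. Psmb2 also left it without any 1 of 5 arrays, the pools of 400 replicates 1 to 3, the pool of 100 replicate 3 and the pool of 200 replicate 3. In such pools, a lower share of dendrites that hold an RNA and less of it per dendrite cannot be told apart.

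**Figure D1:**
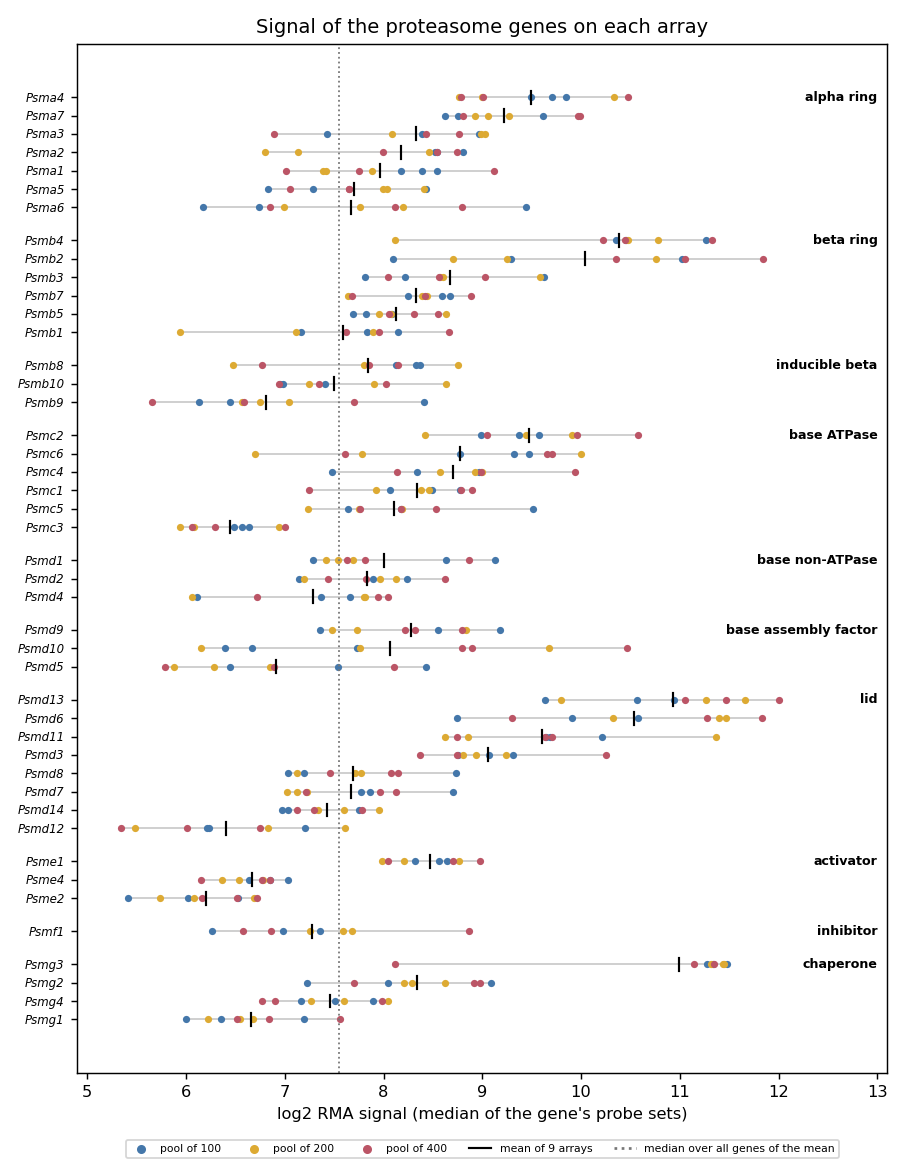
Log2 RMA signal of each of the 44 proteasome genes (horizontal axis) on the 9 arrays, grouped by role, with 1 point per array coloured by pool size, a black bar at the mean of 9 arrays and a dotted line at the median over all genes of that mean. Psmg3, Psmd13, Psmd6, Psmb4 and Psmb2 lie furthest to the right, and Psmg3 has 1 point, from a pool of 400, far to the left of the other 8.

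The 7 genes of the alpha ring had median percentiles between 51.9 (Psma5) and 89.8 (Psma4). Single arrays ranked lower, down to 14.6 for Psma6 on the pool of 100 replicate 2. Psma4 gave log2 signals of 9.70, 9.50 and 9.85 in pools of 100, 8.77, 9.00 and 10.33 in pools of 200 and 8.78, 10.47 and 9.01 in pools of 400. The pools of 100 lay within the range of the other pool sizes, which each spanned more than 1 log2 unit. Psma7 gave 8.76, 8.63 and 9.62 in pools of 100, 9.27, 8.92 and 9.06 in pools of 200 and 9.96, 9.99 and 8.80 in pools of 400, with overlap between all pool sizes. Psma6 varied most within the ring, with an SD of 1.07 over the 9 arrays, and Psma7 varied least, with 0.52.

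Within the beta ring, Psmb4 and Psmb2 stood out. Psmb4, a structural subunit without a proteolytic site, gave 10.46, 11.27 and 10.35 in pools of 100, 8.12, 10.48 and 10.78 in pools of 200 and 10.44, 11.33 and 10.22 in pools of 400. It stood at the 94.2nd percentile or above on 8 arrays and at the 65.6th on the pool of 200 replicate 1. Psmb2, also without a proteolytic site, gave 8.10, 9.29 and 11.02 in pools of 100, 9.25, 8.70 and 10.76 in pools of 200 and 10.35, 11.85 and 11.05 in pools of 400. Its SD of 1.26 was the highest of the core.

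Of the catalytic subunits, Psmb5, which cuts after hydrophobic residues, gave 7.69, 7.83 and 8.08 in pools of 100, 7.95, 8.08 and 8.63 in pools of 200 and 8.06, 8.55 and 8.31 in pools of 400. The pool sizes overlapped, and its SD of 0.31 was the lowest of the core. These are medians of 3 probe sets, which had SDs of 0.60, 0.32 and 0.26. Psmb7, which cuts after basic residues, gave 8.68, 8.59 and 8.24 in pools of 100, 7.64, 8.44 and 8.39 in pools of 200 and 8.42, 8.88 and 7.68 in pools of 400. The third catalytic subunit, Psmb6, had no probe set of its own: the 1 probe set that covers it also names Psmb6l1 and gave log2 signals from 6.93 to 9.04.

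The inducible subunits Psmb8, Psmb9 and Psmb10 replace Psmb5, Psmb6 and Psmb7 in the immunoproteasome, the form that interferon induces and that supplies peptides for antigen presentation. Their median percentiles were 65.3, 23.0 and 42.9, beside 63.7 for Psmb5 and 72.2 for Psmb7. The Psmb5 percentile rests on the median of 3 probe sets, which averaged 11.76, 8.12 and 7.77. Its place beside Psmb8 thus depends on how they are summarised. Psmb8 gave 8.37, 8.13 and 8.33 in pools of 100, 6.47, 8.75 and 7.81 in pools of 200 and 8.14, 6.77 and 7.85 in pools of 400. Psmb9 gave 8.41, 6.44 and 6.13 in pools of 100, 7.04, 6.75 and 6.57 in pools of 200 and 5.65, 7.70 and 6.59 in pools of 400, so that its highest and lowest arrays were 2.76 log2 units apart. Psmb10 gave 6.99, 6.96 and 7.41 in pools of 100, 8.63, 7.25 and 7.90 in pools of 200 and 7.34, 6.95 and 8.02 in pools of 400. The 3 inducible subunits overlapped between all pool sizes.

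In the base, the 6 ATPases had a median percentile of 78.6, from 21.0 for Psmc3 to 89.6 for Psmc2. Psmc5 gave 9.51, 7.64 and 8.18 in pools of 100, 8.19, 7.76 and 7.23 in pools of 200 and 8.53, 7.77 and 8.18 in pools of 400, and 1 array, the pool of 100 replicate 1, lay above the rest. The non-ATPase subunits of the base ranked between 51.8 and 58.5: these are the scaffolds Psmd1 and Psmd2 and the ubiquitin receptor Psmd4. Psmd4 gave 6.12, 7.37 and 7.66 in pools of 100, 6.06, 7.81 and 7.81 in pools of 200 and 7.94, 6.72 and 8.04 in pools of 400; each pool size held 1 array more than 1 log2 unit below the other two.

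The lid held the widest range of ranks, from Psmd12 at the 15.6th percentile to Psmd13 at the 97.2nd. Psmd13 gave 9.63, 10.94 and 10.56 in pools of 100, 9.79, 11.27 and 11.66 in pools of 200 and 11.47, 12.01 and 11.05 in pools of 400, and stood at the 90.9th percentile or above on every array. Psmd6 gave 9.91, 8.74 and 10.58 in pools of 100, 10.32, 11.47 and 11.40 in pools of 200 and 9.30, 11.83 and 11.27 in pools of 400. Both genes had their lowest array among the pools of 100. Psmd12 gave 6.23, 7.20 and 6.21 in pools of 100, 5.48, 6.83 and 7.61 in pools of 200 and 6.75, 5.34 and 6.01 in pools of 400. Psmd14, the lid enzyme that cuts ubiquitin off the substrate, stood at the 42.7th percentile and gave 7.76, 6.97 and 7.03 in pools of 100, 7.96, 7.60 and 7.33 in pools of 200 and 7.78, 7.29 and 7.12 in pools of 400. These values lay within 1 log2 unit of each other, with an SD of 0.36. They are medians of 3 probe sets that each varied more, with means of 7.53, 6.57 and 8.17 and SDs of 0.78, 0.69 and 0.49.

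The activators cap the core in place of the regulatory particle. Psme1, part of the interferon-inducible cap, gave 8.56, 8.64 and 8.32 in pools of 100, 8.21, 7.99 and 8.76 in pools of 200 and 8.70, 8.98 and 8.05 in pools of 400. Its partner Psme2 ranked lowest of all 44 genes and gave 5.41, 6.52 and 6.02 in pools of 100, 5.74, 6.08 and 6.69 in pools of 200 and 6.52, 6.16 and 6.72 in pools of 400. Psme4, which codes for the large single-chain activator, gave 7.03, 6.64 and 6.85 in pools of 100, 6.78, 6.37 and 6.54 in pools of 200 and 6.76, 6.16 and 6.85 in pools of 400. These 3 genes had SDs of 0.34, 0.45 and 0.27, all below the median SD over all genes (0.55), and the Psme4 value was the lowest of the 44. Psme1 and Psme4 are medians of 2 and 3 probe sets. The single probe sets had SDs of 0.65 and 0.35 for Psme1 and of 0.40, 0.54 and 0.42 for Psme4. The 4 probe sets that cover Psme3, the nuclear activator, also name Aoc3 and G6pc1, and Psme3 was not measured alone.

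Chaperones that assemble the core had median percentiles of 22.0 (Psmg1), 69.5 (Psmg2), 98.0 (Psmg3) and 48.4 (Psmg4). Psmg3, described here because of its rank, gave 11.47, 11.28 and 11.34 in pools of 100, 11.43, 11.44 and 11.31 in pools of 200 and 8.11, 11.15 and 11.35 in pools of 400. The 8 arrays other than the pool of 400 replicate 1 thus lay between 11.15 and 11.47. Psmf1, the inhibitor of the core, had a median percentile of 40.8 and varied from 6.26 to 8.87.

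Of the 44 genes, 9 had several probe sets, and for 2 genes their means differed by more than 2 log2 units. The probe sets of Psmd11, a lid subunit, averaged 12.81 ± 0.28 (1380252_at), 9.39 ± 0.91 (1374712_at) and 8.68 ± 0.67 (1376069_at) (SD, n = 9 arrays). As the median of these, Psmd11 gave 9.64, 10.22 and 9.68 in pools of 100, 11.37, 8.62 and 8.85 in pools of 200 and 9.64, 9.71 and 8.74 in pools of 400, at a median percentile of 91.0. The probe sets of Psmb5 averaged 11.76 ± 0.60 (1371348_at), 8.12 ± 0.32 (1385531_at) and 7.77 ± 0.26 (1385532_x_at) (SD, n = 9 arrays). With the probe set of highest mean in place of the median, Psmb5 would stand at the 97.9th percentile in place of the 63.7th, and Psmd11 at the 99.4th in place of the 91.0th.

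**Figure D2:**
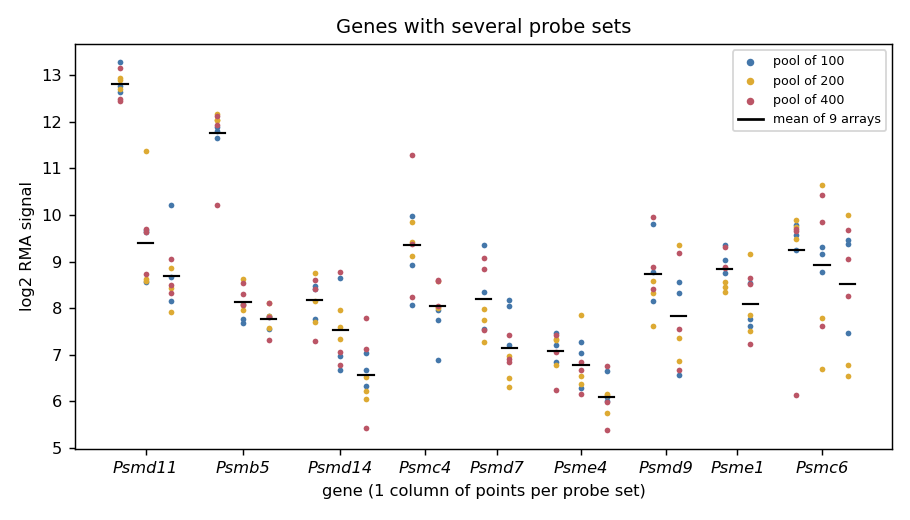
Log2 RMA signal of each probe set of the 9 proteasome genes that have several, with 1 column of points per probe set, 1 point per array coloured by pool size and a black bar at the mean of 9 arrays. The brightest probe set of Psmd11 (12.81) and that of Psmb5 (11.76) stand more than 3 log2 units above the others of the same gene.

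Core subunits were then compared with regulatory subunits within each array, which removes differences between arrays that all genes share. The median percentile of the core minus that of the regulatory class was 8.37, 22.5 and -0.77 in pools of 100, 9.84, 18.0 and 11.6 in pools of 200 and -5.66, 12.0 and 3.76 in pools of 400. The core ranked higher on 7 of 9 arrays, and the mean difference was 8.85 ± 8.79 percentile points (SD, n = 9 arrays), so that it was about as large as its spread between arrays. The classes hold different genes with different probe sets, so the difference describes ranks of signal, and no test was run on it. Taken over the genes' medians the difference was 10.3 percentile points, but it was 1.48 without the pool of 200 replicate 2 and 2.46 when genes were ranked by their mean over arrays. The regulatory median is the value of Psmd2 (58.5), and the next regulatory subunit in rank, Psmc5, stood at 66.2.

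**Figure D3:**
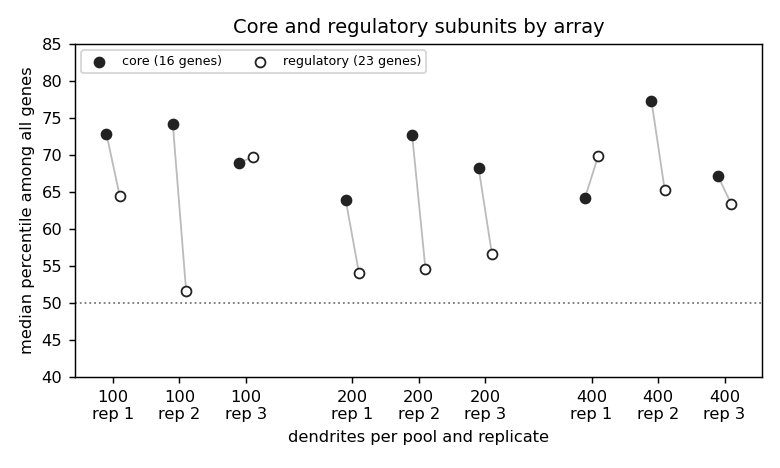
Median percentile among all genes (vertical axis) of the 16 core subunits (filled) and the 23 regulatory subunits (open) on each array, with the dotted line at 50. Both classes are above 50 on all 9 arrays, and the core is higher on all but the pool of 100 replicate 3 and the pool of 400 replicate 1.

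Proteasome genes varied more between arrays than the median gene. The SD over 9 arrays had a median of 0.69 for core and 0.64 for regulatory subunits, beside 0.55 for all genes, and 31 of 44 were above that value of all genes. Several probe sets were summarised for 9 of the 44 genes and for 4525 of the 14217 genes. A median over them can vary less than each alone, as for Psme4, and its part in this contrast was not tested. Psmd10 had the highest SD of the 44, 1.51. The signals of 2 subunits were on the whole uncorrelated over the arrays: the median Pearson correlation over the 9 arrays was 0.03 for the 120 pairs of core subunits, 0.09 for the 253 pairs of regulatory subunits and 0.03 for the 368 pairs across the classes, beside -0.0009 for pairs of all genes. Single pairs ranged from -0.90 to 0.87 within the core and from -0.83 to 0.81 within the regulatory class. Probe sets of 1 gene were not always correlated either, with r from -0.70 to 0.64 for Psmd14, -0.16 for Psme1 and 0.64 for Psmc4, so that these values say little about whether the RNAs move together. They are descriptions, since pairs share genes and all pairs share the same 9 arrays. Without the pool of 400 replicate 1 the medians were 0.02, 0.04 and 0.05.

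To place the genes beside their sequence, the RefSeq promoters (GRCr8, 250 bases before to 50 bases after the start of the gene) were searched on both strands for TGACNNNGC, the core of the element that the transcription factor Nfe2l1, known in mammals to raise proteasome genes when the proteasome is inhibited, binds with its small Maf partners. Promoters of 40 of the 44 genes were matched. The motif stood in 7 of them (17.5%), in 3 of 15 core and 4 of 20 regulatory promoters (20% each), beside 4038 of 33469 promoters in the table (12.1%). The 7 genes were Psma3, Psmb2, Psmb5, Psmd1, Psmd3, Psmd9 and Psme4, and their median percentiles ran from 27.1 (Psme4) to 95.4 (Psmb2). A match is a description of letters and not a binding site. The windows of the beta ring subunits Psmb2 and Psmb5 and of the lid subunit Psmd3 are shown as examples from both classes, with the motif in capitals and 10 bases on each side.
Psmb2, chr5:144254980-144255008, plus strand: cccgcgccaaTGACCGGGCggtcgcatat
Psmb5, chr15:32047421-32047449, minus strand: cgtgaagctgTGACGTCGCggcgttgccc
Psmd3, chr10:84139941-84139969, minus strand: ggccgcacgaTGACCGAGCagctgcaaac
The centre of the motif lies 64 bases before the start of Psmb2, 56 bases before that of Psmb5 and 17 bases after that of Psmd3. The factor itself, Nfe2l1, had a median percentile of 66.7 on the arrays.

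Pool size was compared with limma over all 14217 genes. The 9 arrays share 1 estimate of the spread for each gene, and the comparisons share arrays. No proteasome gene passed an adjusted p of 0.05 between pools of 400 and 100, pools of 200 and 100 or pools of 400 and 200, nor did any gene on the array (percent called 0, 0 and 0, and 0 for the moderated F test over the 3 pool sizes). At an unadjusted limma p under 0.05 there were 2, 2 and 0 of the 44 proteasome genes, and 342, 431 and 327 of all genes. The 95% interval of a proteasome gene reached a median of 1.11 log2 units to either side of its difference. That interval is not adjusted for the number of genes, and the adjusted threshold asks for more: no gene on the array passed it.

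Between pools of 400 and pools of 100, 6 of 16 core subunits and 13 of 23 regulatory subunits were higher, beside 51.5% of all genes, and the median difference was -0.05 for the core, 0.08 for the regulatory class and 0.02 for all genes. Psmd10, an assembly factor of the base also known as gankyrin, gave 10.47, 8.89 and 8.80 with 400 dendrites per pool, against 6.40, 6.66 and 7.74 with 100. All arrays of the pools of 400 were above all of the pools of 100, with a log2 difference of 2.45 (95% interval 0.75 to 4.15). Its unadjusted p was 0.00856 and its limma adjusted p was 0.999. The pools of 200 spanned both, at 6.16, 7.76 and 9.67. Psmd13 was also higher on every array, at 11.47, 12.01 and 11.05 with 400 dendrites per pool, against 9.63, 10.94 and 10.56 with 100, with a difference of 1.13 (-0.04 to 2.30). These were 2 of 44 genes, beside 3.67% of all genes that were higher on every array. None of the 44 was lower on every array, beside 2.58% of all genes. Psmb2 averaged 11.08 ± 0.75 with 400 dendrites and 9.47 ± 1.47 with 100 (SD, 3 arrays each), a difference of 1.62 (0.02 to 3.21) that spanned 0.93 without the pool of 100 replicate 1 to 2.39 without the pool of 100 replicate 3. Psma7, second to Psmb2 among core subunits by p, averaged 9.59 ± 0.68 and 9.00 ± 0.54 (pools of 400 and of 100), a difference of 0.59 (-0.36 to 1.53).

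Between pools of 200 and pools of 100, 8 of 16 core and 9 of 23 regulatory subunits were higher, beside 50.1% of all genes, with median differences of -0.06 and -0.12. Members lower on every array were 3 of 44, beside 3.75% of all genes, and none was higher on every array, beside 4.05%. They are named for this after their values were seen. Psma2, an alpha subunit, gave 6.80, 7.14 and 8.46 with 200 dendrites per pool, against 8.52, 8.54 and 8.81 with 100, a difference of -1.16 (-2.14 to -0.17). Psmd7, the lid partner of Psmd14, gave 7.23, 7.03 and 7.12 with 200 dendrites per pool, against 7.86, 8.70 and 7.77 with 100, a difference of -0.98 (-1.84 to -0.12). It is the median of 2 probe sets. Of these, 1379322_at overlapped, at 7.97, 7.75 and 7.28 with 200 dendrites per pool, against 7.55, 9.35 and 8.34 with 100. Psma1 gave 7.39, 7.42 and 7.88 with 200 dendrites per pool, against 8.39, 8.17 and 8.54 with 100, a difference of -0.81 (-1.87 to 0.26). Their limma adjusted p was 0.9999 in each case.

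Between pools of 400 and pools of 200, 10 of 16 core subunits (62.5%) and 19 of 23 regulatory subunits (82.6%) were higher, beside 51.1% of all genes. The median difference was 0.13 for the core and 0.30 for the regulatory class, beside 0.01 for all genes. All 6 ATPases, the 3 non-ATPase base subunits, the 3 base assembly factors and the 3 activators were higher, as were 4 of 8 lid subunits, while the 3 inducible beta subunits were lower. No single gene of these passed the test, the lowest unadjusted limma p of the regulatory class being 0.0746 (Psmd10). The regulatory median deviation of an array from the mean of each gene was 0.34, 0.10 and -0.05 with 400 dendrites per pool, against -0.21, -0.31 and 0.29 with 200, so that the pool sizes overlapped. The mean log2 signal of the interneuron markers (9 of 10 measured) did not overlap in this comparison, at 7.30, 7.50 and 7.33 with 400 dendrites per pool, against 6.76, 7.14 and 6.79 with 200. This list was picked from the marker lists above after their values were seen, and the other lists overlapped between these pool sizes. Its part in the result was not tested. With 100 dendrites the interneuron mean was 7.23, 7.49 and 7.55, so that the pools of 200 were also below all pools of 100. Without the pool of 400 replicate 1 there were 15 of 23 regulatory subunits higher, with a median of 0.23. Without the pool of 200 replicate 2 the median was 0.18, and without the pool of 200 replicate 3 it was 0.47. Psma5 was the 1 member lower on every array, at 7.06, 7.65 and 7.65 with 400 dendrites per pool, against 8.00, 8.41 and 8.04 with 200, beside 3.18% of all genes. None was higher on every array, beside 3.59%.

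**Figure D4:**
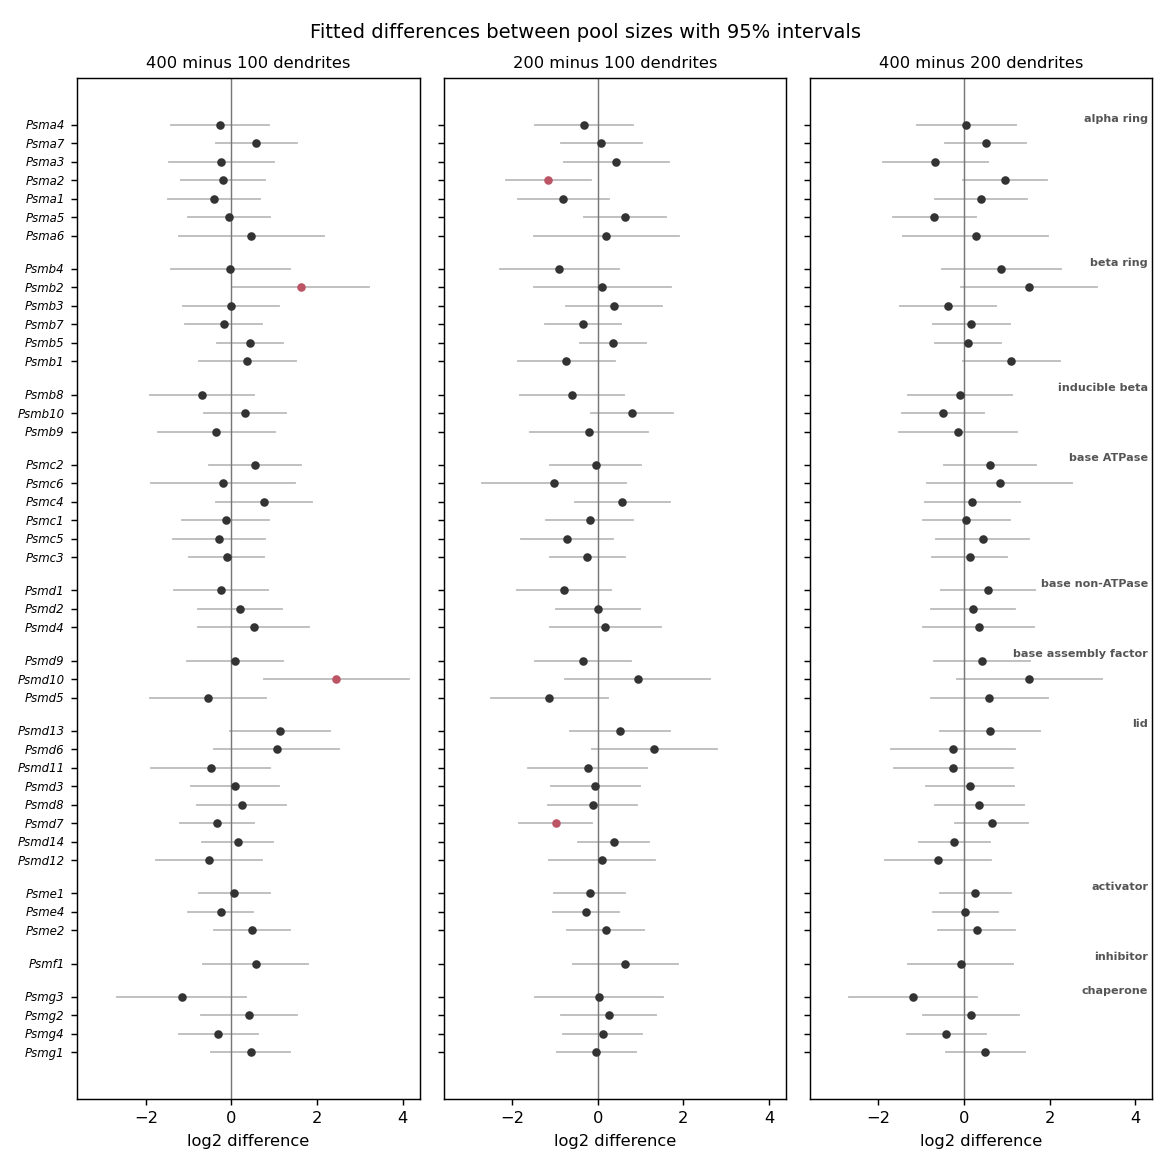
Fitted log2 differences of the 44 proteasome genes between pool sizes, with 95% intervals, in 3 panels (400 minus 100, 200 minus 100 and 400 minus 200 dendrites); red points mark an unadjusted p under 0.05. Most intervals cross 0, and Psmd10 has the largest difference, 2.45 between pools of 400 and 100.

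The wider ubiquitin system was read from a list of 84 genes, of which 67 were measured by a probe set of their own. Its median percentile was 48.6, and 31 of the 67 were above 50. The 9 assembly and associated factors of the proteasome spanned nearly the whole range, with a median of 54.4 and 5 above 50. Pomp, which matures the core, stood at the 99.0th percentile, the ubiquitin receptor Adrm1 at the 96.8th and the proteasome-bound deubiquitinase Usp14 at the 95.4th, while Akirin2, which brings proteasomes into the nucleus, stood at the 32.8th. Adrm1 averaged 10.93 ± 0.12 log2 units (SD, n = 9 arrays), the smallest SD of the 67, while Sem1, a small lid subunit outside the Psm naming, averaged 7.10 ± 1.05 and stood at the 22.7th percentile. Uchl5, the other deubiquitinase of the cap, stood at the 6.8th percentile. Also among the 711 highest-ranked genes were the ligases Rnf216, Trim2 and Fbxo2 and the shuttle factor Ubqln4. The ubiquitin-activating enzyme Uba1 stood at the 84.6th percentile, and 22 conjugating enzymes had a median of 52.8. The 4 ubiquitin genes themselves had no probe set that names 1 gene. None of the 67 passed the limma test in any comparison, and 40, 39 and 31 of them were higher in pools of 400 against 100, pools of 200 against 100 and pools of 400 against 200.

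**Figure D5:**
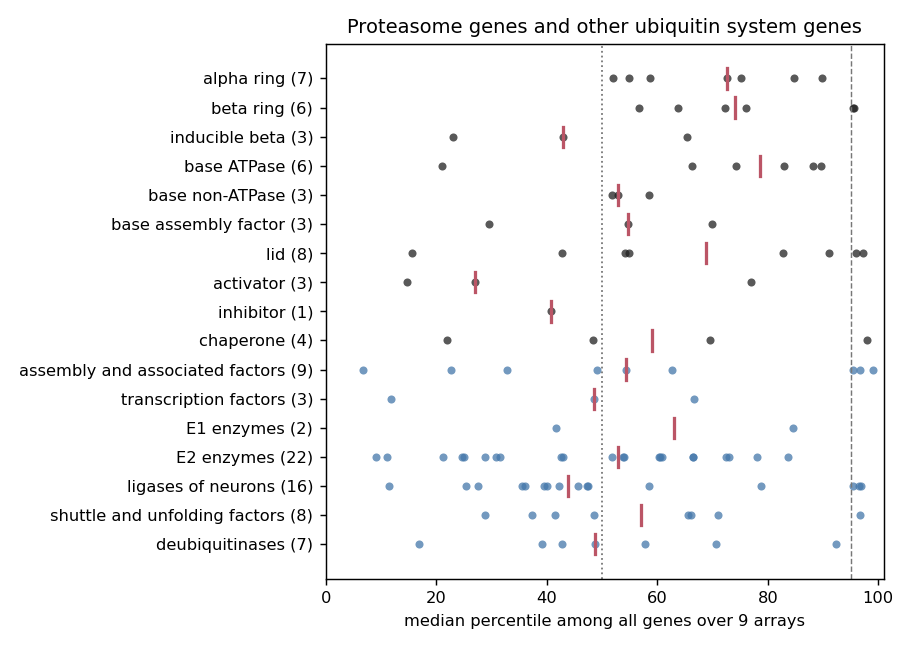
Median percentile over 9 arrays (horizontal axis) of each proteasome gene (black, by role) and each gene of the wider ubiquitin system (blue, by role), with the number of genes in parentheses, a red bar at the median of the group, a dotted line at 50 and a dashed line at 95. All alpha ring and beta ring genes lie to the right of 50, while Psme2, Psmd12 and Psmc3 lie far to the left.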

How the data were processed

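RNA of 9 pools of dendrites was amplified, biotin-labelled and hybridised to 1 array each; the labels give 3 biological replicates per pool size. Whether replicates came from separate cultures is not given in the sources used here, so p-values measure the spread between these pools. The deposited values are log2 signals that the authors computed with RMA 2.0, per the labels' processing notes, for 31099 probe sets (range 4.45 to 15.61). RMA corrects the background, makes arrays share 1 distribution and summarises probes, so differences in total RNA between pools are removed, and arrays have no true zero. The further centring and scaling of the study's methods is not in these values. The number of arrays limits the precision.

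Without the 57 control probe sets, 31042 remained; 20826 name 1 gene in the platform annotation, 436 several and 9780 none. Where a gene had several probe sets, their median was used. Percentiles were ranks within an array. limma 3.58.1 (R 4.3.3; lmFit and eBayes, Benjamini-Hochberg over 14217 genes) compared pool sizes and was tested on simulated data. Alternatives were a fit on probe sets, the brightest probe set, quantile normalization, the scaling of the methods, genes above the median mean signal, trended robust eBayes, the methods' t-test, the replicate number as a block and each array left out. The members and gene lists were chosen with earlier results of these data known. The genes given by array were those of highest and lowest rank, spread and p in each class, the catalytic pairs and selected receptors, enzymes and activators. Promoter sequences came from RefSeq (GRCr8), while the annotation of the array may use another build. Proteins were not analysed here.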

Additional observations from a re-analysis of the deposited data

Results flagged for a closer look

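Over 52 genes and probe sets, 6 had 1 array far from the other 8, as judged by the gap to the nearest array over the whole range. Of the 44 genes among them, 3 did. Chance flags about 1 in 20. Psmb4, a beta ring subunit, was lowest on the pool of 200 replicate 1 (8.12, the nearest other array being 10.22). Psmd3, a lid subunit, was highest on the pool of 400 replicate 1 (10.26, beside 9.31). Psmg3, a core chaperone, was lowest on the same array (8.11, beside 11.15). The brightest probe set of Psmb5, 1371348_at, was also lowest there (10.22, beside 11.65). Among the probe sets of Psmd11, 1374712_at was highest on the pool of 200 replicate 1 (11.37, beside 9.71) and 1376069_at on the pool of 100 replicate 2 (10.22, beside 9.06). The pool of 400 replicate 1, which gave 3 of the 6, also had the lowest mean correlation with the other arrays (0.749); its part in these values was not tested. Without it the difference of Psmg3 between pools of 400 and 100 was -0.12, beside -1.16 with all arrays.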

How the results depend on the processing

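Under all alternatives run, 0 genes passed an adjusted p of 0.05 in any comparison of pool sizes, including the methods' t-test and the fit on probe sets. With the replicate block, 0 genes passed in each comparison, with 362, 437 and 336 at an unadjusted limma p under 0.05 for pools of 400 against 100, 200 against 100 and 400 against 200. Deviations of arrays that share a replicate number had correlations from -0.19 to 0.09 (9 pairs). Those of different numbers had correlations from -0.19 to 0.22 (18 pairs). So few arrays cannot show whether the numbers pair the pools. Of 106 class medians and percentiles that an alternative changed at all, 97 moved by less than the spread between arrays. That spread was 0.25 log2 units for differences of the core and 0.22 for the regulatory class, so a median could change sign within it. For the core minus regulatory percentile it was 8.79 points, so a fall from 10.3 to 2.46 also lay within it. The median percentile of the core was 63.9 with the brightest probe set per gene, and 67.8 to 69.0 when 1 array was left out. That of the regulatory class was 66.1 by the mean over arrays, 66.2 by the mean over arrays with the scaling of the methods, and 66.2 with Psmc3ip and Psme3ip1 added, an alternative chosen after seeing the data; it was 57.5 to 66.3 when 1 array was left out. The core minus regulatory difference ranged from 1.48 to 11.3 percentile points without 1 array. Leaving out 1 array gave median differences of the core from -0.20 to 0.14 (pools of 400 against 100), -0.36 to 0.0046 (200 against 100) and -0.14 to 0.33 (400 against 200), and of the regulatory class from -0.05 to 0.19, -0.25 to -0.02 and 0.18 to 0.47. The signs of the core medians, and of the regulatory median between pools of 400 and 100, thus depend on single arrays. For single genes, 7 percentiles moved by more than their spread. Among them were Psmb5 and Psmd11 with the brightest probe set, where another probe set gives the value. Psma4 (83.4) and Psma7 (76.8) also moved there with 1 probe set each, so only their ranks changed and not their signals. Why probe sets of 1 gene differ was not tested.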

Other observations

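Some probe sets of proteasome genes name several genes, and Psmb6 and Psme3 had no others. The probe set shared by Psma3l and Psma3 averaged 7.78 ± 1.07 log2 units (SD, n = 9 arrays), while Psma3 also had 1 of its own, which averaged 8.33. The probe set shared by Psmb6l1 and Psmb6 averaged 7.62 ± 0.72, and the 4 shared by Psme3, Aoc3 and G6pc1 averaged 6.99 to 9.73. The values matched by letters alone were Psmc3ip, with a median percentile of 83.4, and Psme3ip1, with 88.0.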
